A study of Drosophila melanogaster with 4 samples.

Results

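Piwi-bound small RNA reads on the aminoacyl-tRNA synthetase genes were compared between cells with Yb ΔHel-C and cells with Yb WT. The genes were taken by name: an amino acid abbreviation (or a pair of them) followed by RS, with the ending -m for the mitochondrial enzymes. This gave 33 of the 13931 gene rows, 18 cytosolic and 15 mitochondrial. The rule used names alone and no measured value, but it was set with earlier results of these data known. The cells were OSC, ovarian somatic cells kept as a line of Drosophila melanogaster. In every library endogenous Yb was targeted with an siRNA (siYb) and RNA of 23 to 30 nucleotides was recovered from Flag-tagged Piwi. The plasmid put into the cells coded for Yb without its Hel-C domain in the Yb ΔHel-C group (2 libraries) and for wild-type Yb in the Yb WT group (2 libraries). Each group has 1 column of values, and the unit is RPM, reads per 1000000 reads. The spread between libraries is therefore unknown, and every difference given lacks a check against replicates. Both groups depend on transfection of a plasmid and an siRNA, and the amount of endogenous Yb that remained was not analysed here.

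Aminoacyl-tRNA synthetases join each amino acid to its tRNA, the step that sets the genetic code. They form 2 structural classes, class I and class II, which differ in the fold of the catalytic domain. Mitochondria have their own translation, and the synthetases that serve it are encoded in the nucleus, in most cases by genes separate from the cytosolic ones. Piwi is the nuclear Argonaute protein that binds piRNAs and silences transposons in these cells. Yb gathers piRNA precursors in cytoplasmic bodies, and messenger RNAs can also be cut into piRNAs, often from their 3' ends. A read counted on a synthetase gene is therefore a small RNA held by Piwi and not a measure of the gene's mRNA. More mRNA and more processing of the same mRNA cannot be told apart in these values.

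The totals behind the columns were 2803305 reads for Yb ΔHel-C and 2955141 reads for Yb WT, of which 78.9% in Yb ΔHel-C and 64.2% in Yb WT lay on genes. The somatic markers tj, piwi, fs(1)Yb and Fas3 had 4481, 1998, 645 and 72.8 RPM in Yb ΔHel-C, and 6972, 873, 406 and 34.2 RPM in Yb WT. Of the germline markers, vas, osk, nos and bam had at most 6 reads in either column, while gcl had 46.4 RPM in Yb ΔHel-C and 15.6 RPM in Yb WT, and orb 12.1 RPM in Yb ΔHel-C and 43.0 RPM in Yb WT. Reads of plasmid and endogenous RNA cannot be separated on fs(1)Yb, the gene of Yb, so it checks neither the siRNA nor the plasmid.

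Reads on the synthetase genes were higher in Yb ΔHel-C for 31 of the 33 genes, as they were for 81% of all genes. Together they had 1515 RPM in Yb ΔHel-C and 627 RPM in Yb WT, a 2.41-fold higher level (95% interval 2.29 to 2.55). Here and below, intervals are exact, come from the read counts and cover counting error only, as each group has 1 column. The labels name no molecular identifiers, so copies of 1 molecule may count as separate reads and make the intervals too narrow. A gene was called past 2-fold when its log2 fold, taken on RPM + 0.5, was at least 1 in size. All 33 genes reached the minimum for a gene to be counted, a mean of 1 RPM over the pair of columns, and GluRS-m passed it through Yb ΔHel-C alone. Of these, 24 (72.7%) were past 2-fold higher, none was past 2-fold lower and 9 were neither. Across all 7577 genes at this minimum, 44.9% were past 2-fold higher and 4.98% past 2-fold lower. The median log2 fold was 1.43 over the synthetase genes and 0.89 over all genes. In the class of 10 to 100 RPM, which held 24 of the 33, 17 synthetase genes (70.8%) were past 2-fold higher, against 54.9% of all genes in that class, and none was past 2-fold lower, against 1.31%. The interval lay above 1 for 27 synthetase genes, held 1 for 5 and lay below 1 for MetRS-m, while it lay above 1 for 58.2% and below 1 for 8.14% of all genes. These counts moved with the scaling. The interval lay above 1 for 17 synthetase genes with TMM, 15 with RLE and 24 with gene reads as the total. It lay below 1 for SerRS-m and MetRS-m under all 3. The matching shares of all genes were not worked out, and the 58.2% and 8.14% hold for the authors' totals only. No test was made of the list, so these shares describe the 2 columns.

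**Figure D1:**
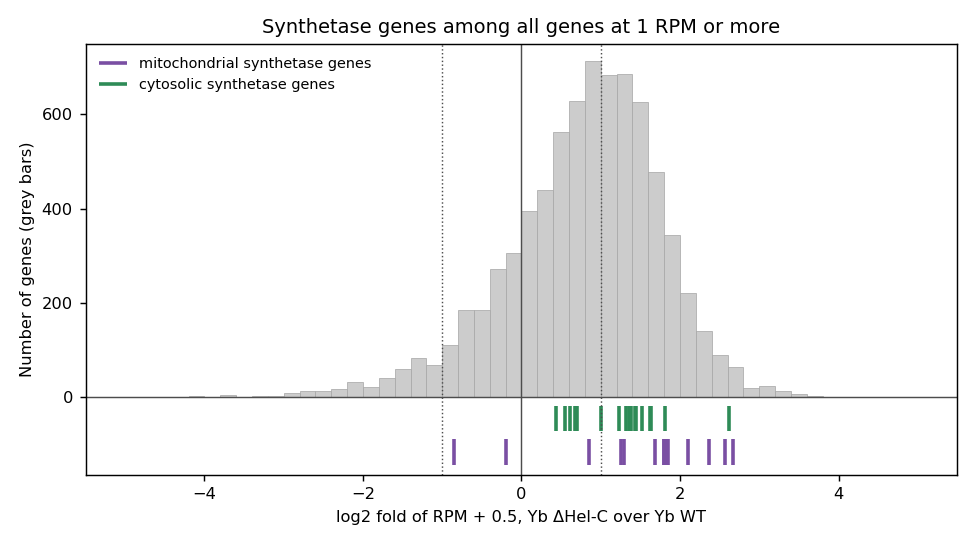
Distribution of the log2 fold of RPM + 0.5 (Yb ΔHel-C over Yb WT, horizontal axis) over 7577 genes averaging 1 RPM or more (grey bars, number of genes), with each synthetase gene as a vertical tick below. The 18 cytosolic genes (green) all lie above 0, and 13 of the 15 mitochondrial genes (purple) do, with SerRS-m at -0.19 and MetRS-m at -0.85; the compartments overlap, and dotted lines mark 2-fold.

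The size of these folds depends on the scaling. The authors' totals include reads outside genes. With edgeR's TMM factors, which treat most rows as unchanged, the median log2 fold of all genes moved by -0.79 and that of the synthetase genes was 0.61. Under TMM 9 synthetase genes, MetRS and 8 mitochondrial ones, were past 2-fold higher (12.8% of all genes) and 2 past 2-fold lower (14.7% of all genes). With RLE factors these counts were 8 (11.3% of all genes) and 2 (15.4%), and with the reads on genes as the total 20 (32.6%) and 1 (7.35%). The cytosolic LysRS, SerRS, ValRS, ThrRS, AlaRS and TyrRS, all under 2-fold on the authors' totals, turned to log2 folds below 0 with TMM and with RLE factors. A scaling moves all genes alike, so the distance of the synthetase median from that of all genes, 0.54 on the log2 scale with the authors' totals, is all but fixed under these alternatives. At 10 to 100 RPM the medians lay closer together, at 1.43 for the synthetase genes and 1.09 for all genes.

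In mammals 8 cytosolic synthetase proteins sit together in the multisynthetase complex, and their fly counterparts are AspRS, GluProRS, LysRS, IleRS, LeuRS, MetRS, ArgRS and GlnRS. All 8 were higher in Yb ΔHel-C (81% of all genes), and each interval lay above 1 (58.2% of all genes). Past 2-fold higher were 7 of them (44.9% of all genes), with a median log2 fold of 1.43 over the 8. All but AspRS lay at 10 to 100 RPM, where 54.9% of all genes were past 2-fold higher. With TMM or RLE only 1 was past 2-fold, against 12.8% and 11.3% of all genes. This grouping was chosen after values were seen. AspRS, the aspartate enzyme (2R, 12877004 to 12883168, dm6), had the most reads of all synthetase genes, 1074 in Yb ΔHel-C and 454 in Yb WT. Its level was 383 RPM in Yb ΔHel-C and 154 RPM in Yb WT, a 2.49-fold higher level (2.23 to 2.79). GluProRS, a fused enzyme that charges both glutamate and proline tRNAs (3R, 23952136 to 23958391), had 94.2 RPM in Yb ΔHel-C and 32.5 RPM in Yb WT, 2.90-fold higher (2.29 to 3.70). The methionine enzyme MetRS (2R, 18846858 to 18850599), which also charges the initiator tRNA, had the highest ratio of the cytosolic genes. It had 48.2 RPM in Yb ΔHel-C and 7.44 RPM in Yb WT, 6.47-fold higher (4.10 to 10.7), and was the only cytosolic gene still past 2-fold with TMM (log2 fold 1.80) or RLE (1.75).

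The isoleucine enzyme IleRS had 64.2 RPM in Yb ΔHel-C and 23.3 RPM in Yb WT (ratio 2.75, 2.07 to 3.68). The leucine enzyme LeuRS had 34.2 and ArgRS, for arginine, 31.4 RPM in Yb ΔHel-C, against 12.9 and 9.81 RPM in Yb WT. GlnRS, for glutamine, had 20.0 RPM in Yb ΔHel-C and 7.11 RPM in Yb WT. The ratios of these 4 genes lay between 2.66 and 3.20. LysRS, for lysine, was the only gene of this group under 2-fold, with 62.1 RPM in Yb ΔHel-C and 42.3 RPM in Yb WT (ratio 1.47, 1.16 to 1.86). It was number 5 in reads among the 18 cytosolic genes in Yb ΔHel-C and number 2 in Yb WT.

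The 10 other cytosolic genes were all higher in Yb ΔHel-C as well, but 5 of them were under 2-fold. Their median log2 fold of 0.85 was near the 0.89 of all genes, of which 44.9% were past 2-fold. All but TyrRS lay at 10 to 100 RPM, where all genes had a median of 1.09 and 54.9% were past 2-fold higher. With TMM or RLE none of the 10 was past 2-fold (12.8% and 11.3% of all genes higher, 14.7% and 15.4% lower). The difference from the genes of the complex was not tested. The tryptophan enzyme TrpRS (3R, 9265027 to 9266904) had 71.0 RPM in Yb ΔHel-C and 20.0 RPM in Yb WT, 3.56-fold higher (2.65 to 4.84). AsnRS, for asparagine, had 38.5 RPM in Yb ΔHel-C and 12.2 RPM in Yb WT (ratio 3.16, 2.15 to 4.75). Of the other genes past 2-fold, HisRS, for histidine, had 26.8 and CysRS, for cysteine, 16.4 RPM in Yb ΔHel-C, against 11.2 and 6.09 RPM in Yb WT. The glycine enzyme GlyRS, whose fly gene serves cytosol and mitochondria, had 16.8 RPM in Yb ΔHel-C and 8.12 RPM in Yb WT. Its log2 fold of 1.002 lay at the 2-fold boundary. The cytosolic label follows the name alone, and no -m gene was listed for glutamine, histidine, lysine or threonine either.

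The 5 cytosolic genes outside the complex and under 2-fold had ratios from 1.37 to 1.65, a range that their selection bounds from above. The serine enzyme SerRS had 49.2 RPM in Yb ΔHel-C and 30.5 RPM in Yb WT. ValRS, for valine, had 29.6 and ThrRS, for threonine, 24.6 RPM in Yb ΔHel-C, against 18.3 and 14.9 RPM in Yb WT. The intervals of these 3 lay above 1. The alanine enzyme AlaRS had 18.5 RPM in Yb ΔHel-C and 13.5 RPM in Yb WT, and TyrRS, for tyrosine, 12.1 RPM in Yb ΔHel-C and 7.78 RPM in Yb WT. The intervals of AlaRS (0.890 to 2.12) and TyrRS (0.892 to 2.77) both held 1, so no difference could be shown for them at this depth.

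**Figure D2:**
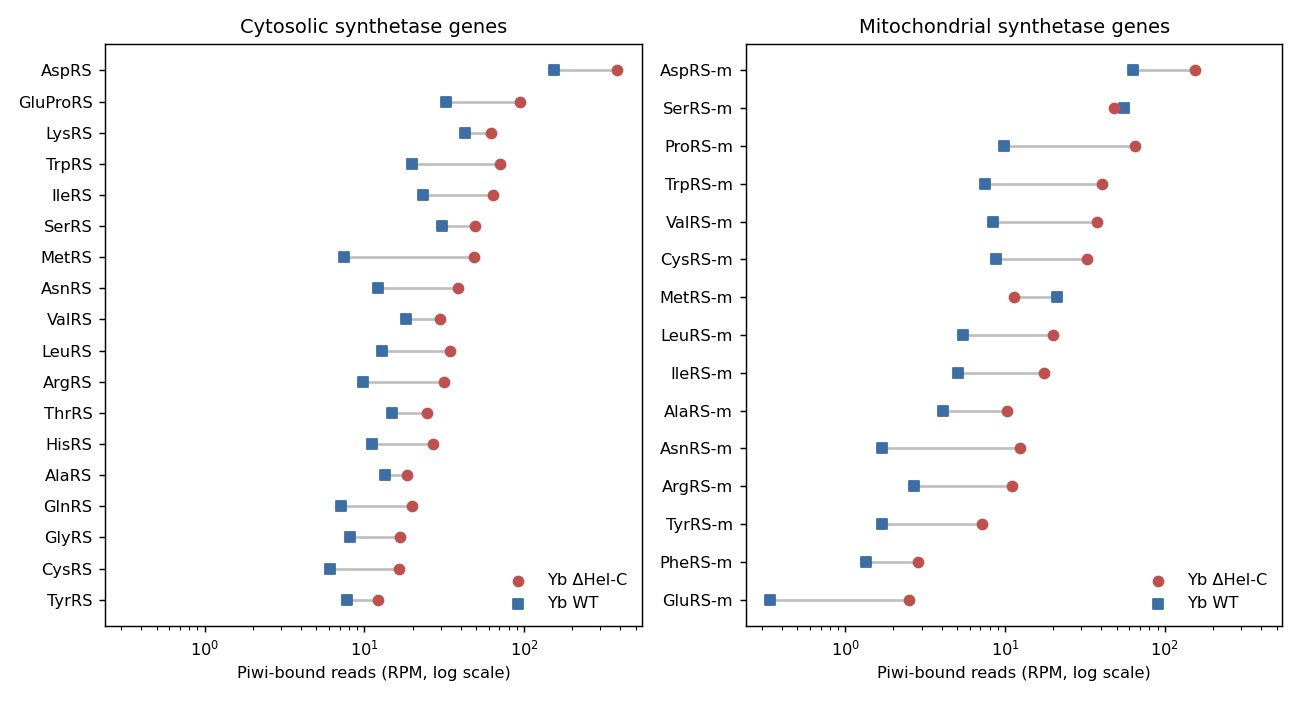
Level of each synthetase gene in RPM (log axis) in Yb ΔHel-C (red circles) and Yb WT (blue squares), with 1 value per group and genes ordered by their mean. Every gene lies to the right in Yb ΔHel-C except SerRS-m and MetRS-m; AspRS and AspRS-m lead their compartments in both groups.

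Of the 15 mitochondrial genes 13 were higher in Yb ΔHel-C (81% of all genes), and SerRS-m and MetRS-m were lower. Past 2-fold higher were 12 (44.9% of all genes), among them GluRS-m, whose direction the minimum fixes. AspRS-m, the mitochondrial aspartate enzyme (2L, 16827078 to 16832093), had the most reads. It had 155 RPM in Yb ΔHel-C and 62.9 RPM in Yb WT, 2.46-fold higher (2.07 to 2.94). ProRS-m, for proline (3L, 2650161 to 2651850), had 64.9 RPM in Yb ΔHel-C and 9.81 RPM in Yb WT, a 6.62-fold higher level (4.45 to 10.2). TrpRS-m, for tryptophan (3L, 17849727 to 17852453), had 40.3 RPM in Yb ΔHel-C and 7.44 RPM in Yb WT (ratio 5.41, 3.41 to 8.98). ValRS-m, for valine (3L, 8961274 to 8964769), had 37.8 RPM in Yb ΔHel-C and 8.46 RPM in Yb WT (ratio 4.47, 2.87 to 7.22). The intervals of AspRS-m and of these last 3 genes lay wholly above 2, as did those of CysRS-m, LeuRS-m and AsnRS-m. So did those of the cytosolic AspRS, GluProRS, TrpRS, IleRS, MetRS, AsnRS and ArgRS. The share of all genes with such an interval was not worked out.

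CysRS-m, LeuRS-m and IleRS-m, the enzymes for cysteine, leucine and isoleucine, had 32.5, 20.0 and 17.5 RPM in Yb ΔHel-C, and 8.80, 5.41 and 5.08 RPM in Yb WT. Their ratios lay between 3.44 and 3.69, with all 3 intervals above 1. The remaining 6 mitochondrial genes had a mean under 10 RPM and at most 35 reads in a column. AsnRS-m, ArgRS-m, AlaRS-m and TyrRS-m, for asparagine, arginine, alanine and tyrosine, had 35, 31, 29 and 20 reads in Yb ΔHel-C, and 5, 8, 12 and 5 reads in Yb WT. The intervals of these 4 lay above 1 but were wide, from 2.88 to 24.1 for AsnRS-m. PheRS-m, for phenylalanine, had 8 reads in Yb ΔHel-C and 4 in Yb WT (ratio 2.11, but a log2 fold of 0.86 on RPM + 0.5). GluRS-m, for glutamate, had 7 reads in Yb ΔHel-C and 1 in Yb WT. Both of their intervals held 1, that of GluRS-m reaching from 0.948 to 333.

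SerRS-m and MetRS-m were the exceptions. SerRS-m, the mitochondrial serine enzyme (3R, 15340667 to 15343218), had 135 reads or 48.2 RPM in Yb ΔHel-C, against 163 reads or 55.2 RPM in Yb WT. Its ratio of 0.873 (0.690 to 1.10) did not differ from 1 beyond counting error on the authors' totals, but its interval lay below 1 with TMM (0.384 to 0.615), RLE (0.371 to 0.594) and gene reads as the total (0.561 to 0.898). MetRS-m, the mitochondrial methionine enzyme (3R, 14249043 to 14259991), had 32 reads or 11.4 RPM in Yb ΔHel-C and 62 reads or 21.0 RPM in Yb WT. Its ratio was 0.544 (0.344 to 0.847), a log2 fold of -0.85, which is under 2-fold on the authors' totals. These alternatives lower every fold, and under TMM the log2 folds were -1.03 for SerRS-m and -1.66 for MetRS-m, both past 2-fold lower.

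**Figure D3:**
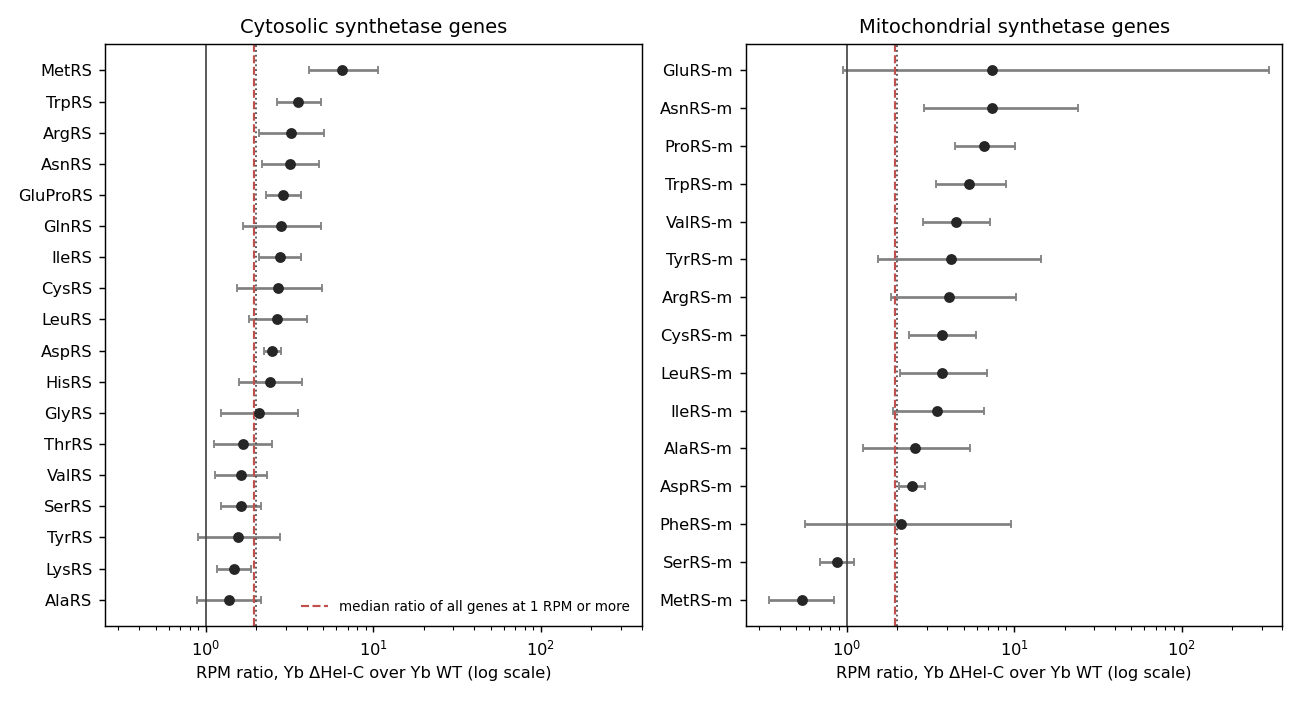
Ratio of RPM (Yb ΔHel-C over Yb WT, log axis) for each synthetase gene, with exact 95% intervals for counting error as bars. The solid line marks 1, the dotted line 2 and the dashed line the median ratio of 7577 genes, 1.93; cytosolic ratios run from 1.37 to 6.47 and mitochondrial ratios from 0.544 to 7.38.

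The cytosolic and mitochondrial genes were then set against each other. The median log2 fold was 1.80 for the mitochondrial and 1.34 for the cytosolic genes. Of the mitochondrial genes 80% (GluRS-m included), and of the cytosolic genes 66.7%, were past 2-fold higher, against 44.9% of all genes. At 10 to 100 RPM these shares were 75% of 8 mitochondrial genes, 68.8% of 16 cytosolic genes and 54.9% of all genes. The medians in that class were 1.81, 1.37 and 1.09. The summed levels gave no such difference between the compartments. Mitochondrial genes together had 474 RPM in Yb ΔHel-C and 196 RPM in Yb WT, 2.42-fold higher (2.19 to 2.67). Cytosolic genes together had 1041 RPM in Yb ΔHel-C and 431 RPM in Yb WT, 2.41-fold higher (2.26 to 2.58). For every cytosolic read there were 0.455 mitochondrial reads in Yb ΔHel-C and 0.454 in Yb WT. The change in this ratio was 1.002 (0.890 to 1.13), a value that does not depend on the scaling of the columns but does depend on the genes summed. Without genes that overlap another, which left 4 mitochondrial and 12 cytosolic genes, the change was 1.88 (1.41 to 2.54).

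The mitochondrial reads were spread differently over the genes in the 2 columns. SerRS-m held 10.2% of the mitochondrial synthetase reads in Yb ΔHel-C (exact 95% binomial interval 8.59 to 11.9) and 28.2% in Yb WT (24.5 to 32.0). MetRS-m held 2.41% in Yb ΔHel-C (1.65 to 3.38) and 10.7% in Yb WT (8.31 to 13.5). Both together made up 12.6% of the mitochondrial reads in Yb ΔHel-C and 38.9% in Yb WT. Without these 2 genes, a choice made after their values were seen, the change in the mitochondrial-to-cytosolic ratio was 1.43 (1.25 to 1.65). ProRS-m showed the opposite shift, with 13.7% in Yb ΔHel-C and 5.01% in Yb WT. AspRS-m held 32.7% in Yb ΔHel-C and 32.1% in Yb WT, and among the cytosolic genes AspRS held 36.8% in Yb ΔHel-C and 35.6% in Yb WT.

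For 12 amino acids both a cytosolic and a mitochondrial gene were listed, so the mitochondrial-to-cytosolic read ratio of each pair could be followed without any scaling. In 9 of the 12 pairs this ratio was higher in Yb ΔHel-C, though the interval of the change held 1 in 9 pairs in all. It lay above 1 for valine alone, where ValRS-m had 1.28 reads per read of ValRS in Yb ΔHel-C and 0.463 in Yb WT, a 2.76-fold change (1.53 to 5.02). It lay below 1 for methionine and serine. The methionine pair moved most: MetRS-m had 0.237 reads per read of MetRS in Yb ΔHel-C and 2.82 in Yb WT, a change of 0.0841 (0.0430 to 0.163). In that pair the mitochondrial gene had more reads than the cytosolic one in Yb WT and fewer in Yb ΔHel-C. SerRS-m had 0.978 reads per read of SerRS in Yb ΔHel-C and 1.81 in Yb WT, a change of 0.540 (0.375 to 0.778). The aspartate pair, the deepest, stood at 0.404 in Yb ΔHel-C and 0.410 in Yb WT (change 0.986, 0.801 to 1.22), a difference within counting error. These intervals were not adjusted over the 12 pairs.

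**Figure D4:**
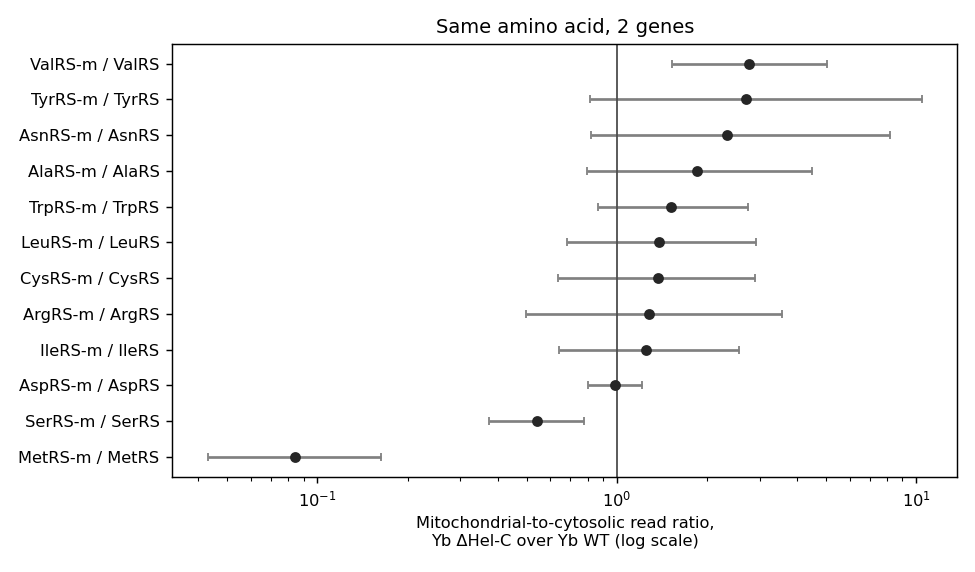
Change in the mitochondrial-to-cytosolic read ratio (Yb ΔHel-C over Yb WT, log axis) for the 12 amino acids with a gene for each compartment, with exact 95% intervals for counting error. The valine pair lies above 1 at 2.76, the serine and methionine pairs lie below 1 at 0.540 and 0.0841, and the other 9 intervals hold 1.

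Grouped by structural class, 15 of the 18 class I genes were past 2-fold higher, with a median log2 fold of 1.74, and 8 of the 14 class II genes (57.1%), with a median of 1.11, against 44.9% and 0.89 for all genes. With TMM these counts were 7 and 2 (12.8% of all genes), and 1 gene of each class was past 2-fold lower (14.7% of all genes). The split by class was chosen after values were seen. GluProRS, which joins an enzyme of each class, was left out of that split. The classes overlapped widely, since MetRS-m is of class I and ProRS-m and AsnRS-m are of class II.

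Levels were compared between genes per kb of locus, introns included, because RPM does not allow for length. AspRS had 62.1 RPM per kb in Yb ΔHel-C and 24.9 in Yb WT, the most of the 33 in both. ProRS-m came next in Yb ΔHel-C with 38.4 RPM per kb, against 5.81 in Yb WT, and SerRS-m was second in Yb WT with 21.6 RPM per kb, against 18.9 in Yb ΔHel-C. The median over the 33 genes was 7.91 RPM per kb in Yb ΔHel-C and 3.19 in Yb WT, and over 7545 genes with a position and the same minimum it was 6.72 RPM per kb in Yb ΔHel-C and 3.31 in Yb WT. The lowest was MetRS-m in Yb ΔHel-C (1.04 RPM per kb) and GluRS-m in Yb WT (0.179). The locus of MetRS-m, 10949 bases with introns, is the longest of the 33, which lowers its value per kb. By RPM alone GluRS-m was lowest in both columns (2.50 in Yb ΔHel-C and 0.338 in Yb WT). Of the 15 mitochondrial genes 7 lie on 3L and none on X, and of the 18 cytosolic genes 3 lie on 3L and 3 on X.

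The locus of 17 of the 33 genes (51.5%) overlaps another annotated gene, as do 51.6% of the 7545 genes. This held for 11 mitochondrial and 6 cytosolic genes. Reads in such stretches are uncertain, as no source used here states whether strand was used in counting. AspRS overlaps Nmda1, which encodes an NMDA receptor subunit, by 3137 bases. Nmda1 had 210 RPM in Yb ΔHel-C and 84.3 RPM in Yb WT, and the ratio of AspRS to Nmda1 reads was 1.82 in both columns. HisRS lies wholly inside the locus of Bx, which encodes a LIM-only protein. Bx had 60.3 RPM in Yb ΔHel-C and 92.4 RPM in Yb WT (ratio 0.653, 0.535 to 0.793), a direction opposite to that of HisRS. SerRS-m lies wholly inside the span of a gene listed as CG6218, which had 68 reads in Yb ΔHel-C and 60 in Yb WT (ratio 1.19, 0.832 to 1.72). Of 12 overlapping partner genes with at least 10 reads over both columns, 9 had ratios above 1 (81% of all genes). TMS1, which overlaps GluRS-m, had 159 reads in Yb ΔHel-C and 28 in Yb WT (ratio 5.99). The ratio was 3.62 for mRpS9, which overlaps ArgRS-m, and 6.85 for NiPp1, which overlaps AsnRS-m. Below 1 were Bx, CG1246, which overlaps ProRS-m, and CG17260, which overlaps SerRS. Whether shared reads set any of these values was not tested. Among the 16 genes with no such overlap, 10 (62.5%) were past 2-fold higher and none lower. The share higher was 44.9% of all genes and 54.9% of those at 10 to 100 RPM. All 16 had ratios above 1, as did 81% of all genes.

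Genes that work with the synthetases were set beside them. Of 9 subunits and partners outside the name pattern, 8 passed the minimum, 5 (62.5%, against 44.9% of all genes) were past 2-fold higher and none lower, with a median log2 fold of 1.33. GatA and GatB, subunits of the mitochondrial amidotransferase that completes glutaminyl-tRNA, had 38.2 and 16.1 RPM in Yb ΔHel-C, and 13.9 and 5.75 RPM in Yb WT. GatC, the third subunit, was listed at 0 in both. The 2 subunits of cytosolic phenylalanine synthetase differed in size of change. The ratio was 2.81 (1.90 to 4.25) for beta-PheRS and 1.50 (0.942 to 2.42) for alpha-PheRS, intervals that overlap. Of the scaffold proteins of the multisynthetase complex AIMP2 was past 2-fold (ratio 2.60, 1.45 to 4.88), and AIMP3 (2.11, 0.942 to 5.04, under 2-fold on RPM + 0.5) and AIMP1 (1.32, 0.576 to 3.08) had intervals that held 1. The last of the 5 past 2-fold, Slimp, a seryl-tRNA synthetase-like mitochondrial protein, had 7 reads in Yb ΔHel-C and 2 in Yb WT. It passed the minimum through Yb ΔHel-C alone, which fixes its direction, and its interval held 1. None of the 8 was past 2-fold with TMM (12.8% of all genes higher, 14.7% lower) or RLE (11.3% and 15.4%).

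Of 20 tRNA processing and modification genes sought, 16 were matched and 15 passed the minimum. Of these 8 (53.3%, against 44.9% of all genes) were past 2-fold higher and none lower, with a median log2 fold of 1.33. Among the 8, Trm7-34 passed the minimum through Yb ΔHel-C alone, which fixes its direction. With TMM or RLE 2 were past 2-fold higher (12.8% and 11.3% of all genes) and 1 lower (14.7% and 15.4%). Rtca, an RNA cyclase, had 72.8 RPM in Yb ΔHel-C and 26.4 RPM in Yb WT, 2.76-fold higher (2.11 to 3.63). Archease, a cofactor of the tRNA ligase, had 50.7 RPM in Yb ΔHel-C and 33.5 RPM in Yb WT, a ratio of 1.51 (1.16 to 1.97). The ligase gene RtcB itself, picked out after its value was seen, was the only one of the 15 with a ratio below 1, at 11.1 RPM in Yb ΔHel-C and 12.9 RPM in Yb WT (ratio 0.860, 0.517 to 1.42).

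Of 7 genes listed for amino acid shortage signalling, 3 (42.9%, against 44.9% of all genes) were past 2-fold higher and none lower. Their median log2 fold was 0.91, next to 0.89 over all genes. The list is wider than its name, since it takes in PEK, which is 1 of the 3. With TMM or RLE 1 was past 2-fold higher, Thor, against 12.8% and 11.3% of all genes. The most abundant, Atf3, a transcription factor, had 324 RPM in Yb ΔHel-C and 285 RPM in Yb WT (ratio 1.14, 1.04 to 1.25). PEK, an eIF2alpha kinase of the endoplasmic reticulum, had 195 RPM in Yb ΔHel-C and 65.3 RPM in Yb WT (2.98, 2.53 to 3.53). Gcn2, the kinase that senses uncharged tRNA, had 111 RPM in Yb ΔHel-C and 61.6 RPM in Yb WT (1.80, 1.50 to 2.17). The other two past 2-fold were crc, the ATF4 gene (2.04, 1.41 to 2.99), and Thor, the 4E-BP gene, with 8 reads in Yb ΔHel-C and none in Yb WT. Thor passed the minimum through Yb ΔHel-C alone, which fixes its direction. Log2 folds turned below 0 for Atf3 with TMM, RLE and gene reads as the total, and for Gcn2 with RLE (-0.044), while Gcn2 was at 0.0058 with TMM. That of GADD34, listed as PPP1R15, turned from 0.37 to -0.46 with TMM and -0.51 with RLE.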

How the data were processed

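Small RNA of 23 to 30 nucleotides bound to Flag-Piwi was sequenced in 4 OSC libraries, 2 per group. The authors deposited 1 table with 1 value column per group. Its values are in RPM (reads per 1000000 reads) by the authors, judged from the values since its header gives none. Per the submitters' processing notes, the tools were STAR and HTSeq, with BDGP6 and dm6 as builds. Multi-mapping, strand and the pooling of replicates were not given in the sources used here. No other value column was present (0). Dividing by 1 step per column gave whole reads, within 0.01 read, for 100% of the values above 0. The recovered reads gave exact conditional (Clopper-Pearson) 95% intervals of ratios.

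A count model such as edgeR's needs replicate columns and was not run on the reads. No count of calls from it is given, and edgeR 4.0.16 (R 4.3.3) supplied only TMM and RLE factors. Log2 folds use RPM + 0.5, which understates changes of rows with few reads. Genes averaging 1 RPM or more were counted. Ratios of read ratios have conditional exact intervals (scipy 1.17.1). Positions are RefSeq's for Release 6 (dm6), matched by symbol or synonym for all 33 genes. Synthetase members and lists were chosen with earlier results of these data known. Values are given for all members, and for up to 3 genes with the most reads in each related list, of which 1 is not reported here. Further list genes (GatB, AIMP1, AIMP2, AIMP3, Slimp, GatC, RtcB, Trm7-34, crc, Thor, GADD34), and the groupings by complex and class, were chosen after values were seen. Alternatives were other scalings, pseudocounts, minimums, and leaving out overlapping genes.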

Additional observations from a re-analysis of the deposited data

How the results depend on the processing

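The scaling moved counts and medians. The count of synthetase genes past 2-fold higher, 24 on the authors' totals, was 9 with TMM, 8 with RLE and 20 with gene reads as the total. The matching shares of all genes were 44.9%, 12.8%, 11.3% and 32.6%. The count past 2-fold lower, 0 on the authors' totals, was 2, 2 and 1 with these scalings. The matching shares were 4.98%, 14.7%, 15.4% and 7.35%. The median log2 fold (1.43) was 0.61, 0.56 and 1.15 with TMM, RLE and gene reads, that of the cytosolic genes (1.34) was 0.52, 0.47 and 1.06, and that of the mitochondrial genes (1.80) was 1.01, 0.96 and 1.55. The ratio of summed cytosolic RPM was 1.34, 1.30 and 1.96, and that of mitochondrial RPM 1.35, 1.30 and 1.97. Without genes that overlap another, 10 of 16 genes (44.9% of all genes) were past 2-fold higher. The medians were then 1.19 over 12 cytosolic and 1.94 over 4 mitochondrial genes, and the mitochondrial sum ratio was 4.45. A pseudocount of 1 RPM gave a mitochondrial median of 1.60. In alternatives chosen after the data were seen, the change in the mitochondrial-to-cytosolic ratio was 1.43 without SerRS-m and MetRS-m, 1.88 without overlapping genes and 1.01 without AspRS and AspRS-m. Partner genes past 2-fold higher (5) were 0 with TMM and 0 with RLE. For tRNA processing genes (8) they were 2 and 2, with 1 and 1 past 2-fold lower, and for the shortage list (3) they were 1 and 1. Beside these counts stand the shares of all genes with TMM and RLE, 12.8% and 11.3% higher and 14.7% and 15.4% lower. The counts past 2-fold higher or lower stayed within 1.5 times under the other pseudocounts and minimums, and 23 of the 24 also had an interval above 1. No paired analysis was possible because each group has 1 column with no replicate number. Leaving out replicates was likewise not possible. Depth limits the rarest genes: 5 mitochondrial genes had under 10 reads in Yb WT.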
